A study of Mus musculus with 36 samples.

Results

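The genes described are DNA glycosylases of base excision repair and Apex1, the endonuclease that acts after them. They were chosen by name: a list of 10 gene symbols was looked up in the deposited expression table, and 9 of the 10 had a row among the 12762 genes of the table (Neil1, Neil3, Ogg1, Mutyh, Nthl1, Ung, Smug1, Mpg and Apex1). Neil2 was listed as well and was not analysed here. The list was drawn up around Neil1 because Neil1 had one of the largest rises in Ikaros cells over control cells at 24 h, so the values at 24 h are given below as a description and no member is tested there.

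Base excision repair removes single damaged bases from DNA. A glycosylase recognises one class of damage (oxidised bases, uracil or alkylated bases) and cuts the base from its sugar, an AP endonuclease opens the strand at the empty site, and a polymerase and a ligase fill and seal the gap, either with a single nucleotide (short patch) or with a longer stretch made by replication enzymes (long patch). In the B cell lineage the pathway is also known for handling uracils in the immunoglobulin genes of activated B cells, a later stage than the cells studied here.

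The cells were B3, a mouse pre-B cell line. Ikaros cells carry a retroviral (MSCV) vector encoding haemagglutinin-tagged wild type Ikaros fused to the estrogen receptor domain ERt2, with GFP after an internal ribosomal entry site, and 4-hydroxy-tamoxifen (4-OHT) brings this fusion protein into the nucleus. Control cells carry the vector without Ikaros. Both were cultured in IMDM with fetal calf serum. Sampling at 0, 2, 6, 12, 18 and 24 h gave 12 groups of 3 libraries. The labels give 0.5 uM 4-OHT for all groups, 0 h included, whereas in the methods of the study no drug was given at 0 h and those cultures were collected separately, so drug, culture occasion and time cannot be told apart in a comparison with 0 h. Each line is a single transduced population, sorted for GFP, then expanded and frozen. No cloning step is described in the sources used here. The 3 libraries of a group are listed below in the order of their numbered culture batches, which were 1, 3 and 4 (for 0 h, 1, 2 and 4).

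Levels are the log2 values of the authors, normalised for GC content, gene length and library preparation. They are relative to the lowest value of the table, which is 1, and are compared between libraries for one gene and never between genes. Read depth is unknown from these values. Ikzf1, the gene of Ikaros, lay between 19.63 and 20.93 in the 18 libraries of the Ikaros line and between 13.95 and 14.85 in the 18 control libraries. All 12 pre-B cell markers looked up had rows, and at 18 h 9 of them were higher in Ikaros cells and 2 lower, when 58.2% of all genes were called, which here means a limma adjusted p under 0.05. Of the markers of other cell types, rows were read for 0 of 5 T cell, 0 of 3 stromal, 2 of 5 myeloid, 2 of 4 erythroid and 1 of 3 NK cell genes. At 18 h the mean level of the myeloid marker Itgam was 9.89 in Ikaros and 5.36 in control cells, that of the myeloid marker Lyz2 was 4.56 and 6.62, and that of the NK marker Klrb1c was 7.08 and 5.10. The part of these markers in the results below was not tested. The 4 libraries with the lowest correlation with their own group (0.966 to 0.971) were all of batch 4, from control cells at 18 h and from Ikaros cells at 2, 6 and 12 h. A result that turned on 1 batch is given with and without it. In bulk RNA, fewer cells that express a gene and less RNA per cell cannot be told apart.

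The promoters of the 3 members that differed most between the lines at 12 h are shown first, each as 300 bases (250 before to 50 after the annotated start) from RefSeq on GRCm38.p6, 5′ to 3′ on the strand of the gene. Capitals mark 2 motifs searched by their letters: GGGAA on both strands, the core recognised by Ikaros zinc fingers, and CACGTG, an E-box that reads the same on both strands and is bound by Myc with Max. Neil1 lies at chr9:57148256-57148555 (minus strand), Nthl1 at chr17:24632432-24632731 (plus strand) and Apex1 at chr14:50924699-50924998 (plus strand).
Neil1: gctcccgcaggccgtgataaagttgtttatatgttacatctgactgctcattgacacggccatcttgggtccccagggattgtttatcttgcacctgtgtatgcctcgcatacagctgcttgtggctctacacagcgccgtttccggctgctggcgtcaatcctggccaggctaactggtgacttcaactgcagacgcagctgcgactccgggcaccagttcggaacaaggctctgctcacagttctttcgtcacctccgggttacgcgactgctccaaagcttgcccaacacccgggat
Nthl1: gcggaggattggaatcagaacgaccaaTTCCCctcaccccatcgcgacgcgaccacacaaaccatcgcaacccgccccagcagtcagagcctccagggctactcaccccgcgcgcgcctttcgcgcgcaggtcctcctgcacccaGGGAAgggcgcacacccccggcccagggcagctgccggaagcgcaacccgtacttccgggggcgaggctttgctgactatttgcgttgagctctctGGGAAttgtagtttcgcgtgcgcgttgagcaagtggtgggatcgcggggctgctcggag
Apex1: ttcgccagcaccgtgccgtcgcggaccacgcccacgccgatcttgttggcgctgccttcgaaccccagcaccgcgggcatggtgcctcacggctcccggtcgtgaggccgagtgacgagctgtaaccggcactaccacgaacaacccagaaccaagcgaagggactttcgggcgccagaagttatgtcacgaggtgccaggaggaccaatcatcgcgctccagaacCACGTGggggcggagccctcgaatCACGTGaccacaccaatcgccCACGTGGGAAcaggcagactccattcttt
The Neil1 window held neither motif. Of all 32851 promoters of this length, 62.7% held GGGAA at least 1 time. The Nthl1 window held GGGAA 3 times, at positions 28 (on the opposite strand, as TTCCC), 146 and 242 counted from its first base, and 8.83% of promoters held 3 or more. The Apex1 window held CACGTG 3 times, at positions 227, 251 and 272, where position 251 is the annotated start. Only 29 of the 32851 promoters (0.0883%) held 3 or more, and 7.15% held at least 1. The last E-box of Apex1 shares its final base with the single GGGAA of that window. Of the other members, Ung and Smug1 held GGGAA 1 time each, Mutyh 1 time in the second of its 2 promoters, and Ogg1, Neil3 and Mpg held neither motif. These matches are descriptions of the letters in the windows and say nothing of binding.

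Neil1 encodes a glycosylase that removes oxidised pyrimidines and ring-opened purines (ENSMUSG00000032298, GRCm38 chromosome 9, 57142800 to 57148305, minus strand, protein coding). At 0 h its level was 11.00, 11.19 and 11.18 in the Ikaros libraries and 11.21, 11.08 and 11.49 in the control libraries. The groups overlapped, and the mean difference of -0.14 (SE 0.17) was not called (limma, adjusted p = 0.766). At 2 h Neil1 was at 12.78, 12.63 and 12.53 in Ikaros cells and at 11.00, 11.51 and 10.97 in control cells. All 3 Ikaros libraries lay above all 3 control libraries 2 h after induction, by 2.81-fold on average (log2 difference 1.49, SE 0.17, adjusted p = 3.26e-07).

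The rise went on at each later tested time. At 6 h the Ikaros libraries were at 13.96, 13.71 and 13.99 and the control libraries at 10.81, 11.21 and 10.96, a difference of 2.90 on the log2 scale or 7.44-fold (limma, adjusted p = 7.94e-13). At 12 h the values were 15.26, 15.12 and 15.25 in Ikaros and 11.03, 11.25 and 10.82 in control cells, an 18.1-fold difference (log2 4.18, SE 0.17). The largest gap was at 18 h. There the Ikaros libraries were at 16.39, 16.19 and 16.53 and the control libraries at 11.14, 10.96 and 10.44, a difference of 5.52 (SE 0.17) on the log2 scale or 46.0-fold (limma, adjusted p = 4.28e-19). Within batches 1, 3 and 4 the 18 h difference was 5.25, 5.24 and 6.09. The control library of batch 4 was the lowest and its Ikaros library the highest of all 36.

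**Figure D1:**
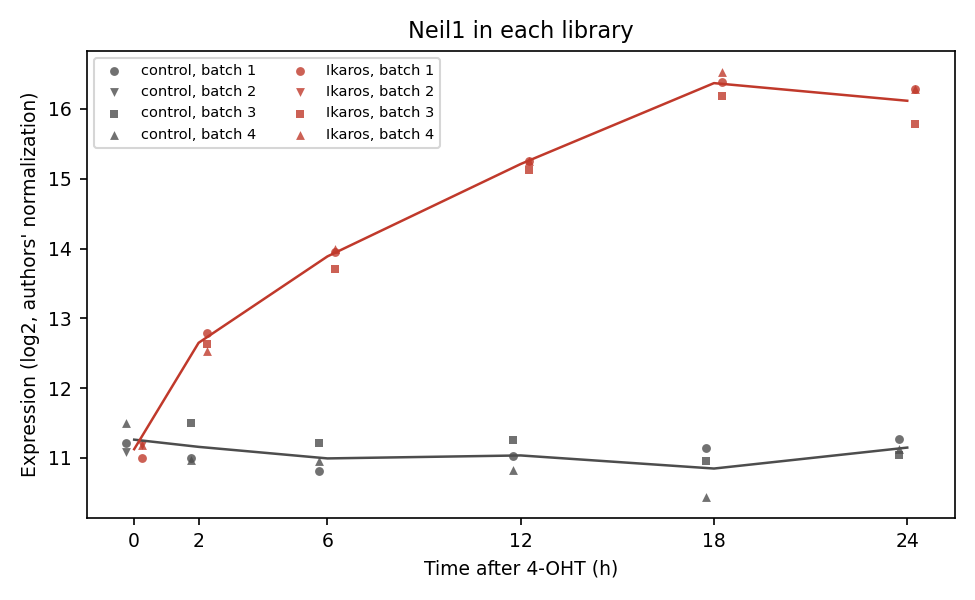
Neil1 level (log2, normalised by the authors) in every library against hours after 4-OHT, with the marker shape giving the culture batch and a line through the group means of control (grey) and Ikaros (red) cells. Control libraries stay between 10.44 and 11.51, while the Ikaros means go from 11.12 at 0 h to 16.37 at 18 h and 16.12 at 24 h.

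Ordered by mean level, Ikaros cells at 18 h (16.37 ± 0.17, SD, n = 3) came first and Ikaros cells at 24 h (16.12 ± 0.29) second, and these neighbours overlapped. Ikaros cells at 12 h (15.21 ± 0.08), 6 h (13.89 ± 0.15) and 2 h (12.65 ± 0.13) followed, and each was separated from its neighbours with no overlap. The 6 control groups and uninduced Ikaros cells formed the lower end, with means from 10.85 ± 0.36 to 11.26 ± 0.21, and every neighbouring pair among them overlapped. Neil1 in control cells was called at no time against 0 h (limma, lowest adjusted p = 0.263 at 18 h, difference -0.41, 95% interval -0.77 to -0.06).

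The gap between the lines widened at each step. It grew by 1.63 on the log2 scale from 0 to 2 h, by 1.40 from 2 to 6 h, by 1.28 from 6 to 12 h and by 1.35 from 12 to 18 h (SE 0.24 each), and all 4 steps were called (limma, adjusted p between 0.000121 and 0.00122). Of all genes, 3.10%, 5.96%, 16.0% and 11.7% were called over these steps. Without the libraries of batch 1, the calls for the first and the second step were lost (adjusted p = 0.107 and 0.0939) with step sizes of 1.45 and 1.42. From 18 to 24 h the gap went from 5.52 to 4.97, given without a test.

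At 0 h none of the 9 members was called between Ikaros and control cells (limma, adjusted p under 0.05), with 1 at an unadjusted p under 0.05 and 8.33% of all genes called. At 2 h Neil1 was the only member called, against 19.1% of all genes. At 6 h 4 of 9 were called (37.3% of all genes): Neil1 and Smug1 were higher and Nthl1 and Ogg1 lower in Ikaros cells. At 12 h 4 of 9 were called again (45.8% of all genes), now Neil1 and Mpg higher and Nthl1 and Apex1 lower. By 18 h 7 of 9 were called, against 58.2% of all genes, with Neil1, Smug1 and Mpg higher and Apex1, Ung, Nthl1 and Ogg1 lower. Mutyh and Neil3 were called at no time between the lines. With 9 members, these counts are not read as more or fewer than among all genes. When 1 replicate was left out, 5 to 6 members were called at 18 h, the lost calls being those of Ogg1, Mpg or both.

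**Figure D2:**
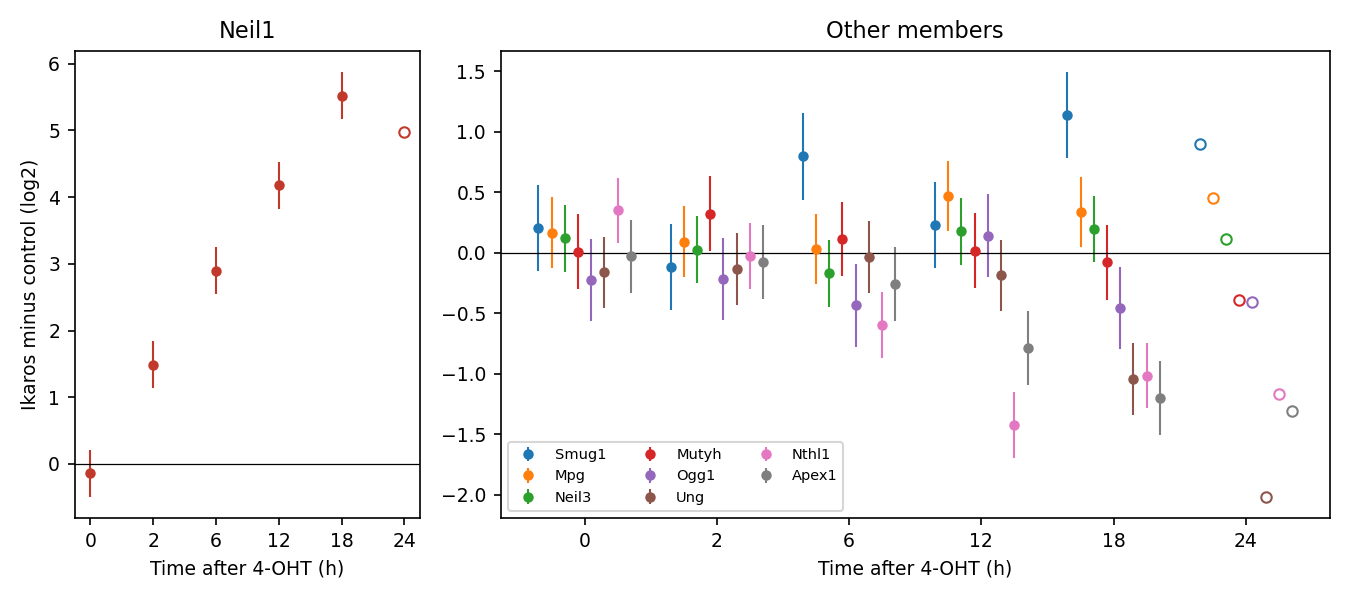
Ikaros minus control difference (log2) of each member at each time after 4-OHT, with times evenly spaced, for Neil1 (left) and the other 8 members (right, on a narrower scale). Filled points carry 95% intervals from limma and open points at 24 h have none because the list was chosen at that time, and the reader should see Neil1 climb to 5.52 while the others stay between -2.01 and 1.14.

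Among the glycosylases for oxidised bases, Nthl1 went the opposite way to Neil1. Nthl1 also removes oxidised pyrimidines (ENSMUSG00000041429, GRCm38 chromosome 17, 24632680 to 24638837, plus strand), so its range of damaged bases overlaps that of Neil1. At 0 h it was at 12.26, 12.23 and 12.44 in Ikaros and 11.87, 11.91 and 12.10 in control cells. Uninduced Ikaros cells thus had the higher level in all 3 libraries, by 0.35 on the log2 scale, without a call (limma, adjusted p = 0.112). At 12 h it was at 10.86, 10.80 and 10.60 in Ikaros and 12.10, 12.40 and 12.03 in control cells, 2.68-fold lower in the Ikaros line (log2 difference -1.42, SE 0.13, limma, adjusted p = 1.48e-09). This was the lowest Nthl1 level of the 12 groups, and no Ikaros library reached any control library. At 18 h the difference was -1.01 (2.02-fold lower, adjusted p = 2.44e-07), and within batches 1, 3 and 4 it was -1.04, -1.11 and -0.90. The 6 h difference of -0.60 was called (adjusted p = 0.000797) but not without batch 3 (adjusted p = 0.0614) or in a fit of the 6 h libraries alone (adjusted p = 0.0893). Against its own 0 h level, Nthl1 in Ikaros cells was lower at every tested time (-0.51 after 2 h, -0.90 after 6 h, -1.56 after 12 h and -1.12 after 18 h), all called, the 2 h call being lost without replicate 2 (batch 2 at 0 h and batch 3 later) or without replicate 3 (adjusted p = 0.102 and 0.109). Between the lines Nthl1 was not called at 2 h (-0.02, limma, adjusted p = 0.931). The change of that difference from 0 to 2 h was not called either (-0.38, limma, adjusted p = 0.405).

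Ogg1 and Mutyh act on the same lesion, oxidised guanine, which Ogg1 cuts out and opposite which Mutyh removes a wrongly placed adenine. Ogg1 (ENSMUSG00000030271, GRCm38 chromosome 6, 113326972 to 113335068, plus strand) was at 10.79, 10.84 and 11.05 in Ikaros and 11.38, 11.12 and 11.49 in control cells at 6 h. The groups did not overlap and the difference of -0.43 was called (limma, adjusted p = 0.0402). At 18 h it was at 10.75, 10.62 and 10.68 in Ikaros and 10.85, 11.09 and 11.47 in control cells, a difference of -0.46 (adjusted p = 0.0202). Neither call held in every fit without 1 replicate. Without batch 1 or batch 3 the 6 h call was lost (adjusted p = 0.187 and 0.164), without batch 3 or batch 4 the 18 h call was lost (adjusted p = 0.168 and 0.143), and the 18 h difference without batch 4 was -0.29. At 12 h Ogg1 did not differ past the threshold (0.14, 95% interval -0.20 to 0.48). Before induction, at 0 h, its difference was -0.22 and not called (limma, adjusted p = 0.526). The control line moved as well, with means of 10.97 at 0 h, 11.33 at 6 h and 11.14 at 18 h. In Ikaros cells the Ogg1 means at these times were 10.75, 10.89 and 10.68. Mutyh (ENSMUSG00000028687, GRCm38 chromosome 4, 116807723 to 116819440, plus strand) ranged from 10.77 to 11.71 over the 18 Ikaros libraries and from 10.83 to 11.54 over the 18 control libraries. Its 18 h difference was -0.08, with a 95% interval of -0.39 to 0.23. At 2 h the Mutyh difference was 0.32 (95% interval 0.01 to 0.63) and not called (limma, adjusted p = 0.145). Within batches 1, 3 and 4 it was then 0.28, 0.32 and 0.36.

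Neil3, the third member of the Neil family with a role in single-stranded DNA and in DNA crosslink repair (ENSMUSG00000039396, GRCm38 chromosome 8, 53586867 to 53639065, minus strand), did not follow Neil1. At 18 h it was at 12.54, 12.64 and 12.60 in Ikaros and 12.38, 12.40 and 12.42 in control cells. All 3 Ikaros libraries were higher, yet the difference of 0.20 was not called (95% interval -0.08 to 0.47, limma, adjusted p = 0.215). The difference between the lines lay between -0.17 and 0.20 at all tested times. When culture batch entered the fit as a replicate block, Neil3 in Ikaros cells was called against 0 h at 6 h (adjusted p = 0.0335) and 18 h (adjusted p = 0.0309), where the fit without the block gave 0.0887 and 0.0831. That block joins batches at 0 h to later ones by number alone, and whether they were the same cultures is not given.

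The 2 uracil glycosylases lay on opposite sides of the control level at 18 h, Ung below and Smug1 above it. Ung is the main uracil-DNA glycosylase, which also clears uracil built in during replication (ENSMUSG00000029591, GRCm38 chromosome 5, 114130386 to 114139323, plus strand). Up to 12 h it was called at no time between the lines, with 12.62, 12.89 and 12.88 in Ikaros and 12.99, 13.05 and 12.91 in control cells at 12 h (difference -0.19, limma, adjusted p = 0.303). At 18 h it was at 11.97, 12.04 and 11.85 in Ikaros and 13.07, 12.95 and 12.98 in control cells. Ung was then 2.06-fold lower in the Ikaros line (log2 difference -1.04, SE 0.14, limma, adjusted p = 6.18e-07), in every batch (-1.10, -0.91 and -1.13). At 24 h the values were 10.64, 11.20 and 10.93 against 12.94, 13.02 and 12.86. The fall between 12 and 18 h, -0.86 as the change of the difference, was called (adjusted p = 0.00686), a call lost without batch 1 (adjusted p = 0.0556) or batch 3 (adjusted p = 0.155). Genes of S phase were read over the same interval. At 12 h 2 of 20 S phase genes were higher and 5 lower in Ikaros cells, and at 18 h 2 were higher and 10 lower, with a median difference of -0.27 beside -0.02 over all genes. Of all genes, 45.8% were called at 12 h and 58.2% at 18 h. The part of S phase in the level of Ung was not tested.

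Smug1, which removes uracil and its oxidised forms (ENSMUSG00000036061, GRCm38 chromosome 15, 103153290 to 103167092, minus strand), was higher in Ikaros cells at 6 h, at 10.33, 10.51 and 10.58 against 9.71, 9.83 and 9.49. The groups did not overlap (difference 0.80, SE 0.17, limma, adjusted p = 0.00071). At 12 h they overlapped (0.23, 95% interval -0.13 to 0.58), and at 18 h they were apart again, at 10.51, 10.47 and 10.95 in Ikaros and 9.72, 9.62 and 9.17 in control cells. Smug1 was then 2.20-fold higher in the Ikaros line (1.14, SE 0.17, limma, adjusted p = 3.08e-06), by 0.78, 0.85 and 1.78 within batches 1, 3 and 4. The control line moved as well. Its mean was 10.30 at 0 h and 9.50 at 18 h, whereas the Ikaros mean was 10.50 and 10.64. The change in control cells of -0.79 was called (adjusted p = 0.0392), and this call was lost when any 1 replicate was left out (adjusted p from 0.117 to 0.622).

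Mpg removes alkylated purines (ENSMUSG00000020287, GRCm38 chromosome 11, 32226505 to 32232700, plus strand). At 12 h it was at 12.02, 11.82 and 12.26 in Ikaros and 11.37, 11.51 and 11.81 in control cells, a difference of 0.47 (SE 0.14, limma, adjusted p = 0.00831). The call was lost without batch 1 or batch 3 (adjusted p = 0.148 and 0.0567). At 18 h the difference of 0.34 was just past the threshold (adjusted p = 0.0448) with overlapping groups, and it was 0.59, 0.36 and 0.06 within batches 1, 3 and 4. Without batch 1 or batch 3 this call was lost as well (adjusted p = 0.383 and 0.219).

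Apex1, the main AP endonuclease, which opens the strand at the sites that all the glycosylases leave, fell in Ikaros cells (ENSMUSG00000035960, GRCm38 chromosome 14, 50924968 to 50927139, plus strand). At 0 h it was at 15.34, 15.53 and 15.39 in Ikaros and 15.47, 15.31 and 15.58 in control cells, with overlap. By 12 h it was at 14.79, 14.85 and 14.38 in Ikaros and 15.42, 15.56 and 15.41 in control cells. The 12 h difference was -0.79 (SE 0.15, limma, adjusted p = 8.61e-05), or 1.73-fold lower. At 18 h the Ikaros libraries were at 14.11, 14.42 and 14.41 and the control libraries at 15.47, 15.76 and 15.30. Apex1 was 2.29-fold lower in the Ikaros line at that time (-1.20, SE 0.15, limma, adjusted p = 1.12e-07), and by -1.36, -1.34 and -0.89 within batches 1, 3 and 4. The mean in Ikaros cells was lower at each later time, from 15.42 at 0 h through 15.22, 14.98, 14.68 and 14.31 to 13.95 at 24 h, while control means stayed between 15.24 and 15.51.

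**Figure D3:**
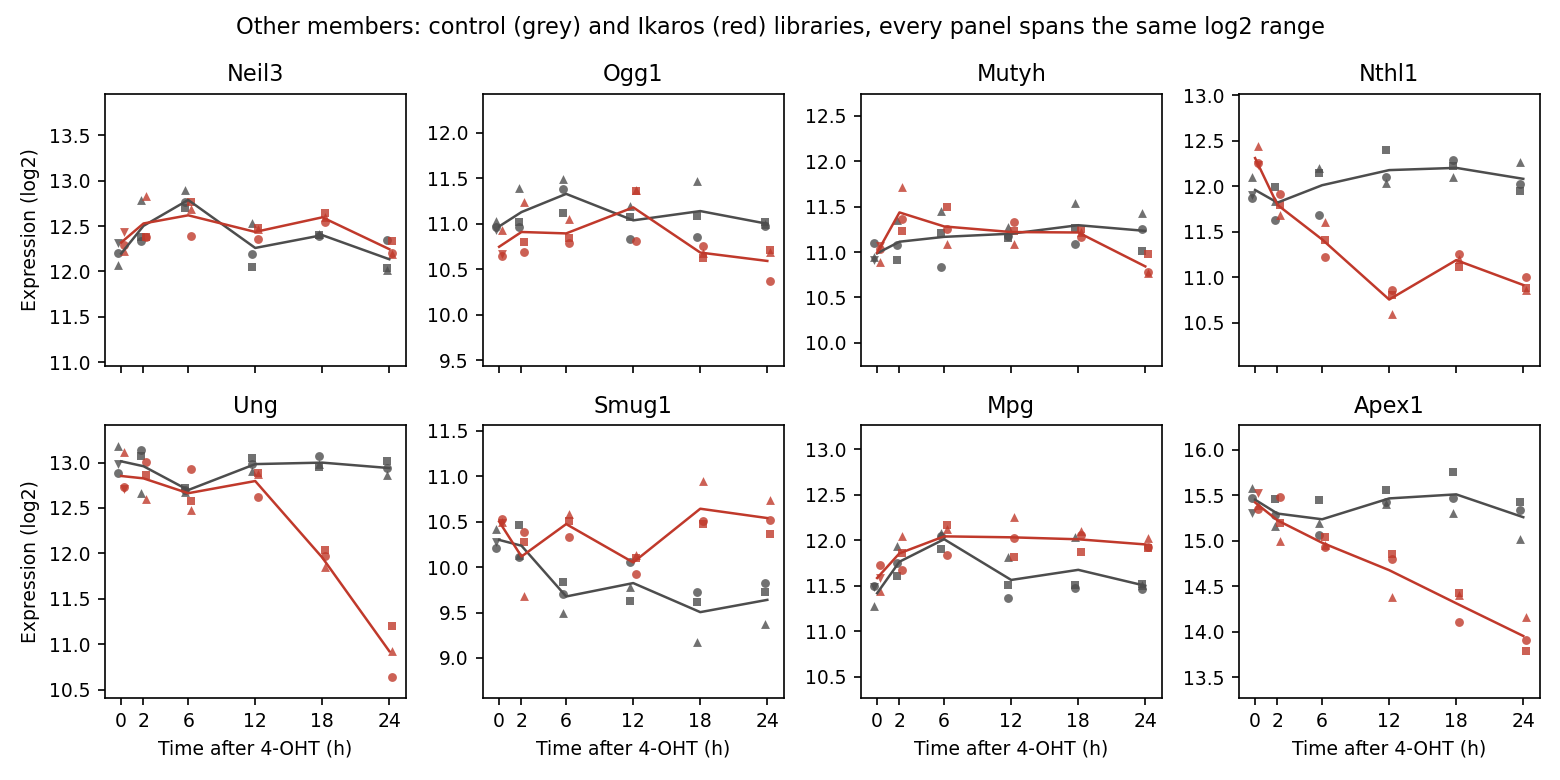
Levels (log2) of the 8 other members in every library against hours after 4-OHT, control in grey and Ikaros in red, with lines through the group means and marker shapes for culture batches (circle 1, triangle pointing down 2, square 3, triangle pointing up 4). Nthl1 is lowest at 12 h in Ikaros cells (mean 10.75), Ung leaves the control level after 12 h, and Apex1 goes down step by step to 13.95. Neil3, Mutyh, Ogg1 and Mpg differ less from control, between -0.46 (Ogg1 at 18 h) and 0.47 (Mpg at 12 h), with groups apart at some times.

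The difference between the lines was also compared between times, which removes the difference at the earlier time. At 0 h that is what set the lines apart before induction, and at 2 h it includes a called 1.49 for Neil1. From 0 to 18 h it changed for 5 of 9 members (43.0% of all genes were called): it rose by 5.66 for Neil1 and 0.94 for Smug1, and it was -1.37 for Nthl1, -1.17 for Apex1 and -0.88 for Ung (limma, highest adjusted p = 0.00299, for Smug1). From 2 to 18 h, which uses no 0 h culture, the called members were again these 5 (42.2% of all genes): Neil1 4.03, Smug1 1.26, Apex1 -1.12, Nthl1 -0.99 and Ung -0.91. Mpg, Ogg1, Mutyh and Neil3 were called in neither comparison. Their changes from 0 to 18 h were 0.17, -0.23, -0.09 and 0.07, with 95% intervals that together span -0.71 to 0.58.

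Within the Ikaros line against its own 0 h, 3 of 9 members were called at 2 h (19.2% of all genes), namely Neil1 and Mutyh higher and Nthl1 lower. The Mutyh call (0.44, limma, adjusted p = 0.0398) was lost when any 1 replicate was left out. At 6 h 4 were called (32.8% of all genes), with Neil1 and Mpg higher and Apex1 and Nthl1 lower. At 12 h 6 were called (46.1% of all genes), with Neil1, Mpg and Ogg1 higher and Apex1, Nthl1 and Smug1 lower. At 18 h 5 were called (54.6% of all genes), with Neil1 and Mpg higher and Apex1, Nthl1 and Ung lower. Several of these calls needed all 3 replicates. That of Apex1 at 6 h (-0.44) was lost without replicate 1 or 2 (limma, adjusted p = 0.124 and 0.144), that of Ogg1 at 12 h (0.43) without replicate 2 (0.391) and that of Smug1 at 12 h (-0.45) without replicate 1 or 2 (0.235 and 0.159), and Mpg lost its call at each of the 3 times without replicate 2 (0.0569 to 0.220), at 12 h also without replicate 3 (0.0824) and at 18 h also without replicate 1 (0.0637).

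Control cells give the level of change without the Ikaros fusion protein. None of the 9 members was called at 2 h (limma, 2 at an unadjusted p under 0.05, 0.0470% of all genes called) or at 12 h (1 at an unadjusted p under 0.05, 0.0549% of all genes called). At 6 h 3 members were called against 5.10% of all genes, with Mpg higher by 0.59, Neil3 higher by 0.59 and Smug1 lower (-0.62). In Ikaros cells the change from 0 to 6 h was 0.46 for Mpg, which was called, and 0.30 for Neil3, which was not, and neither was called between the lines at 6 h. All 3 control calls were lost when any replicate was left out. At 18 h Smug1 was the 1 member called, where 0.478% of all genes were.

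At 24 h, the time that chose the list, Neil1 was at 16.28, 15.78 and 16.29 in Ikaros and 11.27, 11.04 and 11.13 in control cells, 4.97 apart on the log2 scale. The differences of the other members at 24 h were -2.01 for Ung, -1.31 for Apex1, -1.17 for Nthl1, -0.41 for Ogg1, -0.39 for Mutyh, 0.11 for Neil3, 0.45 for Mpg and 0.90 for Smug1. The 3 libraries of one line lay beyond the 3 of the other for 8 of 9 members, the exception being Neil3, and for 71.0% of all genes.

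The other genes of the pathway were read from lists by step, at 18 h between the lines. Of the 2 remaining glycosylases that act on thymine or uracil mispaired with guanine, Mbd4 was higher at 2, 6, 12 and 18 h (0.75, 0.86, 0.50 and 0.58, limma, adjusted p = 0.000151, 1.19e-05, 0.00295 and 0.000543). Tdg was higher at 6 h (0.65, adjusted p = 0.0126), lower at 12 h (-0.64, adjusted p = 0.011) and at -0.26 at 18 h (adjusted p = 0.272). From 0 to 6 h the Tdg mean went from 11.58 to 11.03 in control and from 11.71 to 11.68 in Ikaros cells. The Mbd4 mean went from 11.36 to 10.86 in control and from 11.36 to 11.72 in Ikaros cells. Apex2, the second AP endonuclease, was lower at 2 h (-0.71, adjusted p = 0.0196) and 18 h (-0.57, adjusted p = 0.0231) and was not called at 6 h (-0.35) or 12 h (-0.17).

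Of 10 genes of short-patch repair and end processing, 3 were higher and 2 lower at 18 h, when 58.2% of all genes were called, and no excess is read from this or the counts that follow. The polymerase Poll (0.47, limma, adjusted p = 0.000221) and the scaffold Xrcc1 (0.24) were among those that rose. The ligase Lig3 had the largest fall (-0.86, adjusted p = 4.26e-05), ahead of Tdp1 (-0.69). Polb, the gap-filling polymerase, was at 0.21 and not called (adjusted p = 0.056). Of 4 genes that sense or signal strand breaks, Parp3 (1.73) and Parp1 (0.46) were higher and Parp2 (-0.28) lower at 18 h, against 58.2% of all genes called. Parp3 was already higher at 0 h, before induction (0.74, limma, adjusted p = 0.00482).

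Long-patch repair shares its enzymes with replication. Of 20 such genes 1 was higher (Wrn, 0.78) and 11 were lower at 18 h, with a median of -0.29 (all genes, 58.2% called and a median of -0.02), and the count had been 3 higher and 5 lower at 12 h (all genes, 45.8% called). The polymerase subunit Pold2 fell most (-1.14, limma, adjusted p = 8.48e-11), followed by the clamp loader subunit Rfc4 (-0.92) and by Pole2 (-0.83), whereas the clamp Pcna was at 0.11 (adjusted p = 0.729). Of 16 genes of G2 and M phase 3 were higher and 4 lower at 18 h, with a median of 0.16, beside the same 58.2% of all genes.

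Enzymes that keep damaged nucleotides out of the DNA precursor pool split in both directions. Of 5 such genes 2 were higher and 3 lower at 18 h (58.2% of all genes called). Nudt18 had the largest rise (1.99, limma, adjusted p = 3.36e-12), and Nudt5 (-1.48, adjusted p = 1.34e-11), Dut (-0.71), which destroys dUTP, and Nudt1 (-0.43) were lower. Of the enzymes that make base changes which glycosylases then remove, 4 of 5 were higher at 18 h, again beside 58.2% of all genes called in either direction: the cytosine deaminases Apobec1 (0.75) and Apobec3 (0.51) and the oxidases of methylated cytosine Tet1 (1.26, at a low level) and Tet2 (0.89). Tet3 was at 0.63 (adjusted p = 0.11).

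**Figure D4:**
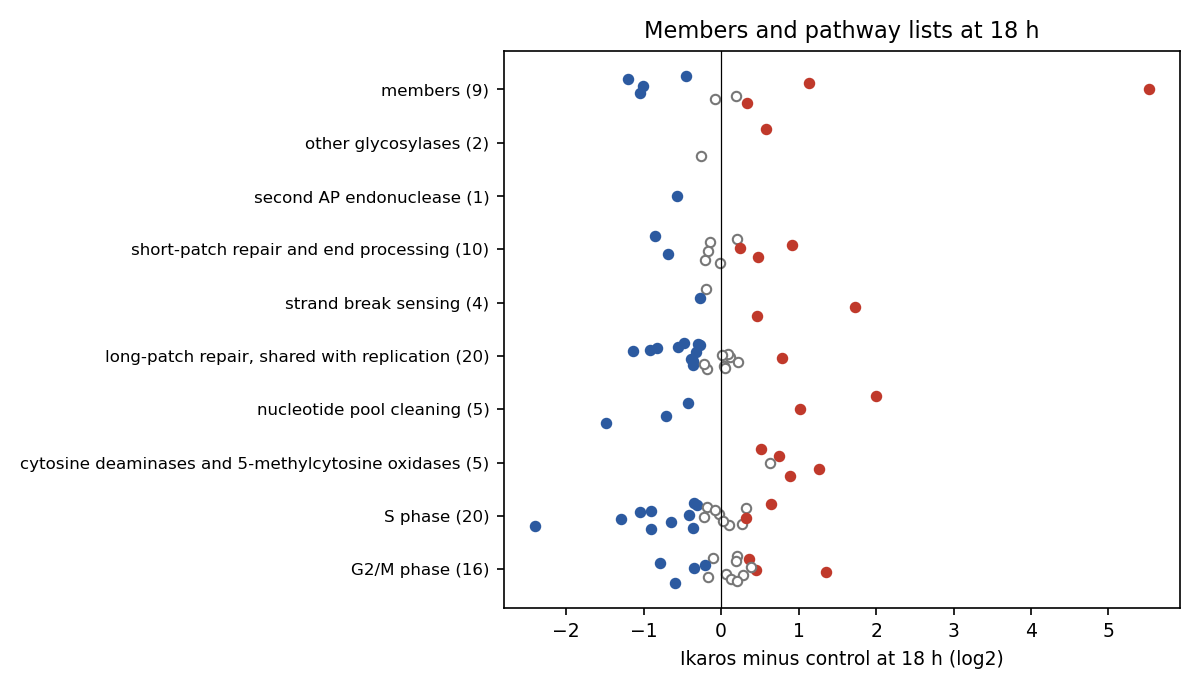
Ikaros minus control difference at 18 h (log2) for every gene of each list, 1 point per gene, with the number of genes in brackets. Red points were called higher, blue points lower and open points not called (limma, adjusted p under 0.05), and Neil1 at 5.52 lies beyond every gene of the other lists, whose largest value is 1.99. Neil1 was picked for its rise at 24 h, so its place among the lists is a description only.

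The genes around Neil1 on chromosome 9 were read to see whether they moved with it. Man2c1, on the opposite strand and 78 bases from the end of Neil1, moved the other way, with 12.00 ± 0.08 in Ikaros and 12.83 ± 0.13 in control cells at 18 h (SD, n = 3 each, difference -0.83, limma, adjusted p = 9.34e-08). It was already lower at 2 h (-0.34, adjusted p = 0.0171). Commd4, on the same strand and 6730 bases away, was not called at 2 and 6 h (-0.14 and 0.15) and higher at 12 h (0.96, adjusted p = 2.41e-07) and at 18 h, at 15.89 ± 0.13 against 14.30 ± 0.18 (1.59, adjusted p = 1.17e-11). Sin3a, 14434 bases away, differed by 0.10 at 18 h (adjusted p = 0.352). The antisense gene 2410133F24Rik, on the strand of Neil1 and 11510 bases away, was called at no tested time, with 1.30 at 12 h (adjusted p = 0.0938) and 1.06 at 18 h (adjusted p = 0.152). Neil1 was thus called 2 h after induction, when Man2c1 was lower and Commd4, Sin3a and 2410133F24Rik were not called. Some members overlap a gene on the opposite strand. Tmem55b, which overlaps Apex1, was lower in Ikaros cells at 2 h (-0.50, adjusted p = 0.00505), 6 h (-0.72) and 12 h (-0.44) and near 0 at 18 h (-0.03), and Nprl3, which overlaps Mpg, was called at no tested time (0.08 at 18 h). Ogg1 overlaps Camk1, which was not analysed here. The libraries keep strand, but the strand setting of the gene counting is not given in the sources used here, so reads of overlapping partners may not be separated.

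**Figure D5:**
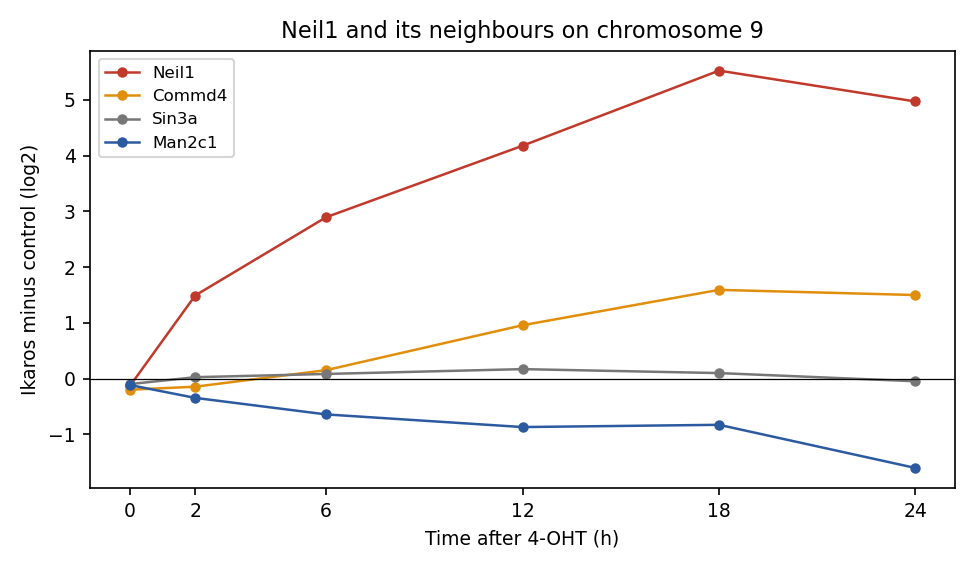
Ikaros minus control difference of group means (log2) against hours after 4-OHT for Neil1 and 3 of the 4 genes within 20000 bases of it (2410133F24Rik is not drawn), 3 libraries per line and time. Neil1 reaches 5.52 at 18 h, Commd4 1.59, Sin3a stays near 0 and Man2c1 goes down to -0.83 at 18 h and -1.60 at 24 h.

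Genes with the pattern most like that of Neil1 were picked by Pearson correlation over the 12 group means among 9501 genes, as a description in which all points share the same libraries and the 24 h groups. The 5 highest were Agpat9 (r = 0.995), Tubb2b (0.994), Suox (0.991), C2cd3 (0.989) and Ighm (0.989), the gene of the immunoglobulin mu heavy chain. Tubb2b went from 10.53 at 0 h to 15.94 at 18 h in Ikaros cells, whereas C2cd3 went from 12.85 to 13.74. The 5 most opposite were Srfbp1 (-0.993), Abcc1 (-0.993), Slc19a1 (-0.992), St3gal4 (-0.992) and Nbn (-0.991), the last a component of the complex that senses double-strand breaks. Among the members, Apex1 (r = -0.945) and Nthl1 (-0.933) ran most nearly opposite to Neil1, Ung was at -0.768, Ogg1 at -0.561, Mutyh at -0.121, Neil3 at 0.171, Smug1 at 0.617 and Mpg at 0.702.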

How the data were processed

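Messenger RNA of 36 libraries was measured by strand-specific mRNA-seq. The authors mapped fragments to mm10 with TopHat2, counted them per gene with HTSeq, normalised with cqn and adjusted for library preparation with ComBat. The deposited values are taken as log2, the scale of cqn. The table does not name the base, and each fold given rests on base 2. Depth is not recorded in them, and variation removed before deposition cannot be seen by a later model, so standard errors may be too small.

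One model with 12 group means was fitted to all genes (limma 3.58.1, R 4.3.3). P-values are two-sided, Benjamini-Hochberg adjusted over 12762 genes and called at adjusted p under 0.05. The script was tested on simulated data. Members and lists were chosen with earlier results of these data known. Every member is named. From the lists, the largest called rise and fall are named, except for some genes that are not reported here, and the steps between successive times were added after values were seen. Batch numbers in the labels were taken to mark a shared culture batch and to pair the lines at each time. The 0 h cultures were collected separately, and whether their batches are those of the same number at later times is not given. The replicate block treats them as the same. Deviations of the 18 pairs correlated between -0.0620 and 0.507, above 0.1 in 12. Alternatives were a replicate block, a filter at the 25th percentile, quantile normalisation, eBayes with trend and robust settings, only the compared groups, and leaving out each replicate. Replicates 1, 2 and 3 are batches 1, 3 and 4 (1, 2 and 4 at 0 h). Gene positions are from GENCODE on GRCm38, the build mm10.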

Additional observations from a re-analysis of the deposited data

Results flagged for a closer look

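The response over time differed between the Ikaros and control lines for 5 members, by the test of the change of their difference from 0 to 18 h (limma, adjusted p under 0.05). The change was 5.66 for Neil1, 0.94 for Smug1, -0.88 for Ung, -1.17 for Apex1 and -1.37 for Nthl1 on the log2 scale, and 43.0% of all genes passed the same test. For Smug1 the control mean went from 10.30 to 9.50 while the Ikaros mean went from 10.50 to 10.64.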

How the results depend on the processing

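Of 1368 values of single members under an alternative, 1299 kept their side of the threshold, 64 lost a call and 5 gained one. The sign differed in 43, none of them called. Neil1 was called at 2, 6, 12 and 18 h under each alternative. With only the compared groups fitted, the members called were 2 for Ikaros against control at 6 h, 1 for Ikaros cells at 2 h against 0 h, and 0 for control cells at 6 h and at 18 h (5 and 1 at an unadjusted p under 0.05). Between the lines 3 were called at 12 h, without Mpg (adjusted p = 0.0908), and 5 at 18 h, without Mpg (0.170) and Ogg1 (0.0710). In Ikaros cells against 0 h Mpg at 6 h (0.0737) and 12 h (0.0640) and Ogg1 at 12 h (0.124) were lost, and Neil3 at 18 h (0.0383) was gained. With 1 replicate left out, the members called ranged from 2 to 4 for Ikaros against control at 6 h, from 1 to 2 for Ikaros cells at 2 h, from 2 to 4 at 6 h and from 3 to 5 at 12 h against 0 h, and were 0 for control cells at 6 h and at 18 h (3 to 4 and 2 to 3 at an unadjusted p under 0.05). The 24 h difference ranged from -0.57 to -0.26 for Mutyh, -1.53 to -1.14 for Apex1 and 0.66 to 1.03 for Smug1. With the replicate block by culture batch, which joins batches at 0 h to later ones by number alone, no call of a planned comparison was lost. Those of Neil3 in Ikaros cells at 6 h (0.38) and 18 h (0.35) were gained. The cause of these differences was not tested. Depth is unknown, and 3 libraries per group limit what can be called.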
